A study of Homo sapiens with 8 samples.

Results

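NAP1L3, LIMCH1 and TACC1 were among the genes whose signals fell furthest when HSF1, the master transcription factor of the heat shock response, was knocked down in A375 human melanoma cells, and none of the 3 was called higher in cells given the HSP90 inhibitor NVP-HSP990. They are described here together with the other members of their gene families, NAP1L1, NAP1L2, NAP1L4, NAP1L5, TACC2 and TACC3, over all probe sets annotated to these symbols alone. The 9 genes were measured by 31 probe sets, out of 19775 genes and 41091 probe sets with a single gene symbol. Of the 9 genes, 8 were bright enough to be tested, which required a signal at or above the array's own median on at least 2 of the 8 arrays. NAP1L5 was not, and 23 of the 31 probe sets passed the same requirement. NAP1L3, LIMCH1 and TACC1 were chosen for their values in the knockdown and inhibitor comparisons, so those values are given as a description without a test. The paralogs were chosen by family and were tested.

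Each of 4 groups held 2 HG-U133 Plus2 arrays. The DMSO control was A375 cells with a non-targeting hairpin (shNTC) in 0.1% DMSO, and the Dox control was the same line with Doxycycline and 0.1% DMSO. The inhibitor group was A375 cells carrying the HSF1 hairpin sh1999 (shHSF1) and treated with 100 nM NVP-HSP990 without Doxycycline, and the knockdown group was that line with Doxycycline and 100 nM NVP-HSP990. In all groups the agent or DMSO was given for 3 h after 3 days of culture. Doxycycline switches on the hairpins, which were carried by a Tet-inducible lentiviral vector, so the inhibitor group carried an HSF1 hairpin that had not been induced according to its titles. The culture text of the labels gives 100 ng/ml Doxycycline without separating the groups, and the groups were therefore taken from the titles. HSF1 was targeted by 1 hairpin in these arrays, so loss of HSF1 and any off-target effect of that hairpin cannot be told apart. The word knockdown is used below for both. NVP-HSP990 in shNTC cells and the HSF1 knockdown without NVP-HSP990 were not analysed here, so the effect of NVP-HSP990 and the difference between the hairpin lines cannot be told apart. Nothing in the labels says that replicate arrays were separate cultures, and p-values measure only the spread between these arrays, which may be technical.

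Nucleosome assembly proteins are histone chaperones. They bind histones H2A and H2B, carry them to the nucleus and help to put them on and take them off DNA. NAP1L1 and NAP1L4 are made in most tissues, whereas NAP1L2, NAP1L3 and NAP1L5 are best known from neurons and are encoded by genes without introns. The transforming acidic coiled-coil (TACC) proteins share a C-terminal coiled coil and work with CKAP5 on microtubules. TACC3 is held on the mitotic spindle by Aurora A and clathrin, and TACC1 and TACC2 are found at centrosomes. LIMCH1 has a calponin homology domain and a LIM domain, binds non-muscle myosin II and promotes stress fibers. HSF1 binds DNA as a trimer at heat shock elements, which are inverted repeats of GAA units.

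Promoters are shown for NAP1L3 and LIMCH1, of the genes whose level fell most, and for the paralogs whose promoter held a pair of such units. They are RefSeq promoters of GRCh38.p14, from 250 bases before to 50 bases after the start, printed 5′ to 3′ on the strand of the gene, with matches in capitals. The patterns searched were GAANNTTC and TTCNNGAA, each of which reads the same on both strands, and the longer GAANNTTCNNGAA and TTCNNGAANNTTC, which are reverse complements of each other and contain the shorter ones. NAP1L3 lies on the minus strand (chrX:93673529-93673828), LIMCH1 on the plus strand (chr4:41359357-41359656, the first of its 4 starts), NAP1L2 on the minus strand (chrX:73214802-73215101) and TACC2 on the plus strand (chr10:121994382-121994681, the first of its 4 starts).
NAP1L3: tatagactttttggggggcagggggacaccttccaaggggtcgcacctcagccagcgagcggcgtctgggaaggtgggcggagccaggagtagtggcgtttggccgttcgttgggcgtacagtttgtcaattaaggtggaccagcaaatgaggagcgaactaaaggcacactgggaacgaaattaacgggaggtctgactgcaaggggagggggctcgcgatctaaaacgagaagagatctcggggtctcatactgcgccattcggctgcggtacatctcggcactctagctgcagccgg
LIMCH1: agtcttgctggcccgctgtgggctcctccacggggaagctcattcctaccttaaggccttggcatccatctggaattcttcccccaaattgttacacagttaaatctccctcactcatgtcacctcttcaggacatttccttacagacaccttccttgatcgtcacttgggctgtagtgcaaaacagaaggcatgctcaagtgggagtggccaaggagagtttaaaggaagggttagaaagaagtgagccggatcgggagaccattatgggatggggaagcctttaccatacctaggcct
NAP1L2: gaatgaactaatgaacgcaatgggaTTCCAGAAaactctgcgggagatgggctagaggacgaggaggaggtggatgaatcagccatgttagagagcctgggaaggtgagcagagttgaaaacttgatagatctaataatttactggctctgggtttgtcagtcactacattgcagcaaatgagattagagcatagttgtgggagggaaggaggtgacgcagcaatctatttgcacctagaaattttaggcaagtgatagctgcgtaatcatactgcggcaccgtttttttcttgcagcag
TACC2: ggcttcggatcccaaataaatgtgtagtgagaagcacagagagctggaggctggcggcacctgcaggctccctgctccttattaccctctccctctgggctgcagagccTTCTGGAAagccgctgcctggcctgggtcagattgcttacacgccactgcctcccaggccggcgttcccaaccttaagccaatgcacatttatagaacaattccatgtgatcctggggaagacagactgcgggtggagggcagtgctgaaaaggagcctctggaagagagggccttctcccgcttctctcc

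Neither of the short patterns was found in the windows of NAP1L3 or LIMCH1, in any of the 4 LIMCH1 promoters, or in those of NAP1L1, NAP1L4, NAP1L5 and TACC3. NAP1L2 held TTCCAGAA beginning 225 bases before the start, and the first TACC2 promoter held TTCTGGAA beginning 141 bases before it. Over the 35116 promoters of the RefSeq table, 13.5% held a short pattern and 0.49% held a long one. None of the 17 promoters searched, which cover 8 of the 9 genes and not TACC1, held a long one, whereas the promoter of HSPA6, an inducible HSP70 gene searched in the same way, held both. These matches describe letters in a window of this length and not binding.

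HSF1 itself fell with its hairpin. Its signal (202344_at) was 38.2 and 47.3 in the DMSO control, 36.6 and 47.9 in the Dox control, 99 and 42.5 in the inhibitor group, and 5.5 and 7.3 in the knockdown group. The log2 change with the knockdown was −1.87 (SE 0.29, n = 2 against 2, limma adjusted p = 0.00754). Both knockdown values lay under the median signal of their arrays, and the first array of the inhibitor group was the highest of the 8. Without that array the log2 change was −1.39 (limma adjusted p = 0.0259). The mean signal of the knockdown group was 9.05% of the inhibitor group, or 15.1% without that array, and since it is so dim this share is not a measured remaining level of HSF1. Signals here are MAS5 signals scaled to a trimmed mean of 150 per array. Log2 changes are differences of log2(signal + 16), which understates changes of dim probe sets, and adjusted p-values are Benjamini-Hochberg values over the 12672 genes tested.

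The arrays resembled each other, with pairwise correlations of 0.98 to 0.995. The ratio of 3′ to 5′ ACTB signal, a measure of RNA degradation and amplification, was 46.8 on the second array of the Dox control and 4.73 to 18.9 on the other 7. It was 10.3 and 5.63 on the arrays of the knockdown group and 18.9 and 8.27 on those of the inhibitor group. The results that use the Dox control include the array with the highest ratio. Of the melanocyte lineage genes, MITF, SOX10, S100B and S100A1 were above the median on all arrays, while PMEL, MLANA, TYR and TYRP1 were below it on all. Summed signals of the 8 melanocyte genes on the array ranged from 1986.1 to 2819.5. They were 2750.5 and 2674.7 in the inhibitor group and 2466.3 and 1986.1 in the knockdown group. S100B read 262.6 and 181.9 against 139.2 and 69.4 (log2 change −1.03, SE 0.30, limma adjusted p = 0.105). SOX10 differed by −0.49, S100A1 by −0.38 and MITF by −0.16, and none was called. Summed signals of hepatocyte markers ranged from 22.7 to 52.1 and of colon epithelial markers from 15.9 to 22.7, with none of these 10 genes above the median on all arrays. Of 6 fibroblast markers, each read from its brightest probe set, COL1A1 and LUM were above the median on all arrays and the defining COL1A2 and COL3A1 on none. Other probe sets of COL1A1 disagreed. Its 202310_s_at was above the median on all arrays, 217430_x_at on some, and 202311_s_at (2.7 to 7.2) and 202312_s_at (0.4 to 10.3) on none. The summed fibroblast signals were 490.3 to 630.1 on the 6 arrays outside the knockdown group and 894.2 and 824.1 in it. LUM, which encodes the matrix proteoglycan lumican, read 450.9 and 429.7 in the inhibitor group and 756.3 and 708.2 in the knockdown group (log2 change 0.71, SE 0.15, limma adjusted p = 0.0385), while COL1A1 read 117 and 113.7 against 85.9 and 84.5 (limma adjusted p = 0.428). The part of this in the knockdown results was not tested. In these bulk samples, fewer cells of a type and less RNA per cell cannot be told apart.

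The knockdown comparison set the knockdown group against the inhibitor group, which differ in Doxycycline and share the line and NVP-HSP990, and asks which genes depend on the HSF1 hairpin in inhibitor-treated cells. In it, 234 genes were called lower (1.85% of the genes tested) and 126 higher (0.994%), 2.84% in all. Of the 234 lower genes, 16 were called higher with NVP-HSP990 and 218 were not, beside 0.221% of all genes called in either direction. The inhibitor arrays enter both comparisons on opposite sides, so these calls are not independent. A gene that was not called may still have risen, as with CLU, 7th of the 218 by its fall, which differed by 1.36 with NVP-HSP990. Among those 218, ordered by the size of the fall, NAP1L3 was the first, LIMCH1 the third and TACC1 the fourth. TASOR, with a log2 change of −2.29, stood between NAP1L3 and LIMCH1, and GPR180, with −2.10, followed TACC1.

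NAP1L3 showed the largest fall of the 9 genes. Its only probe set (204749_at) gave 684.5 and 585.2 in the DMSO control, 834.6 and 654.9 in the Dox control, 686.2 and 636.6 in the inhibitor group, and 105.3 and 89.1 in the knockdown group. The 6 arrays without the HSF1 knockdown lay between 585.2 and 834.6, far above both knockdown arrays. NAP1L3 kept 14.7% of its mean signal, a log2 change of −2.58 (SE 0.17, n = 2 against 2), which was the 4th lowest of the 12672. In the inhibitor group its level stood at 104% of the DMSO control (log2 change 0.06, SE 0.17), and the arrays of these groups overlapped.

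LIMCH1, the regulator of non-muscle myosin, was next. Probe set 212327_at gave 1064.4 and 1167.1 in the DMSO control, 1165.8 and 1193 in the Dox control, 1206.2 and 954.3 in the inhibitor group, and 258.7 and 164.3 in the knockdown group. Again both knockdown arrays lay below the other 6. LIMCH1 kept 19.6% of its signal, a log2 change of −2.29 (SE 0.20), the 6th lowest. The inhibitor group stood at 96.8% of the DMSO control (log2 change −0.05, SE 0.20).

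The fall was seen by several probe sets of LIMCH1, though not to one extent. On 212328_at the signals were 936 and 1056.1, 1078 and 1255.7, 881.9 and 935.9, and 205.9 and 125.5 in the same order of groups, and the log2 change with the knockdown was −2.38. On 212325_at they were 369.3 and 410.6, 598.8 and 509.6, 431.8 and 488.6, and 219.4 and 181.3, and the change was −1.14, with 43.5% of the signal left. On 212325_at and 212328_at both arrays of the Dox control exceeded both of the DMSO control, by 0.49 (SE 0.16) and 0.22 (SE 0.21) on the log2 scale. Neither difference passed when all probe sets were tested singly (limma adjusted p = 1 for each). The fourth, 232457_at, read 3.5 to 10.6 and was never at the array median.

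TACC1, a centrosomal TACC protein, completed the group. Probe set 200911_s_at gave 833 and 734 in the DMSO control, 733.7 and 610.3 in the Dox control, 743.4 and 648.9 in the inhibitor group, and 169.3 and 124.4 in the knockdown group. The knockdown arrays were the lowest 2 of the 8, and the other groups lay close together. TACC1 kept 21.1% of its signal, a log2 change of −2.14 (SE 0.18), the 9th lowest. Its level in the inhibitor group was 88.9% of the DMSO control (log2 change −0.17, SE 0.18).

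Of its 6 probe sets, 5 passed the requirement and 4 of these fell with the knockdown, again as a description. Probe set 217437_s_at fell from 468.3 and 724.6 to 123.6 and 157.6, a log2 change of −1.94. Signals on 217433_at went from 86.4 and 116 to 38.8 and 29.9 (−1.21), and on 1554690_a_at from 32.2 and 42 to 9.8 and 12.2 (−0.97, with 29.7% of the signal left). The 2 that did not fall read near or below the array medians of 10.6 to 14.2, 242290_at with signals of 8.6 to 19.1 and 1557305_at with 0.5 to 7.7.

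**Figure D1:**
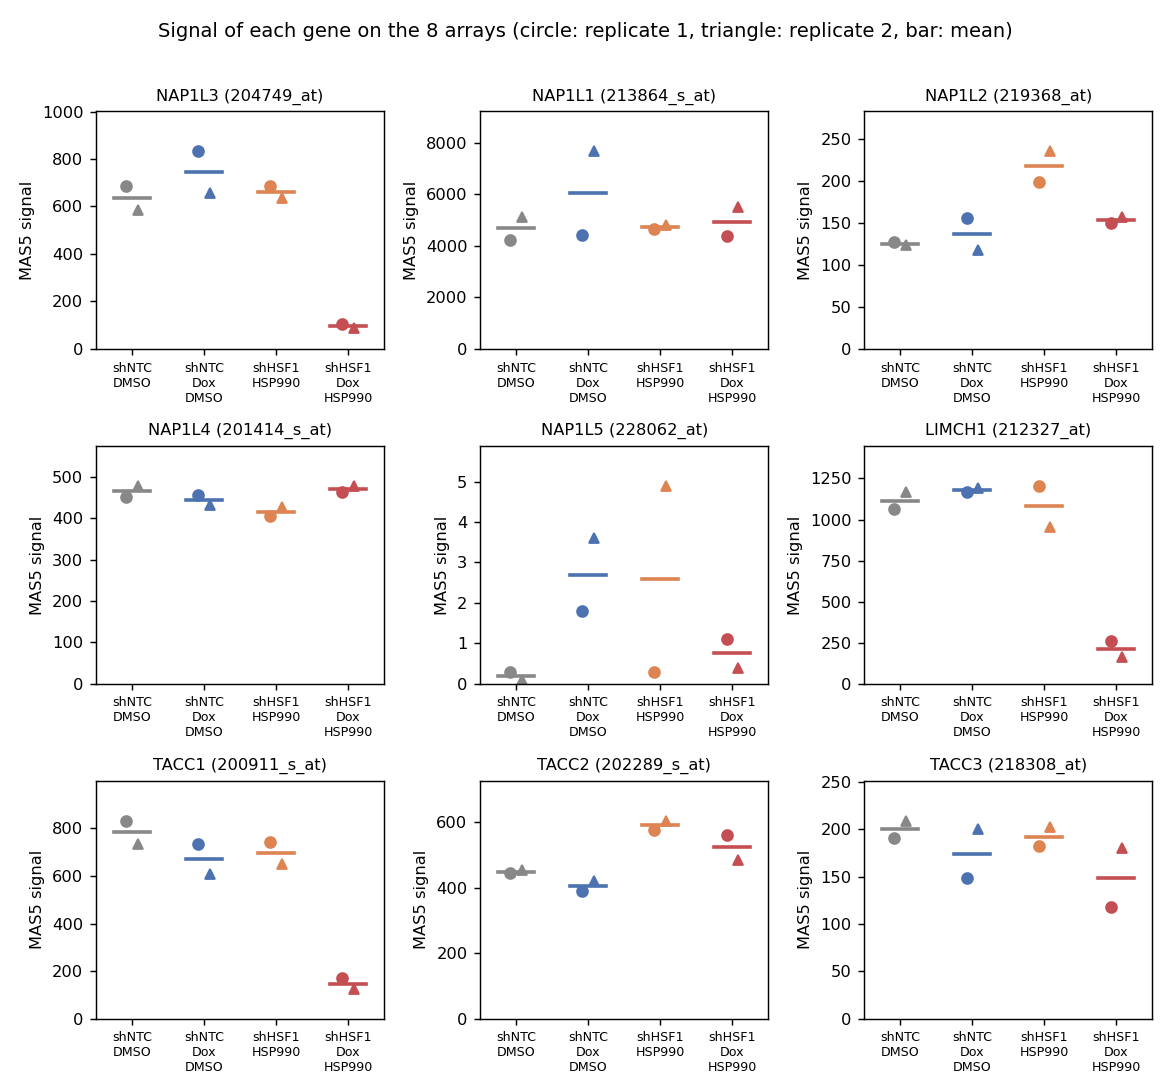
MAS5 signal (y axis, starting at 0, own scale for each gene) of the brightest probe set of each of the 9 genes in the 4 groups (x axis), with circles for replicate 1, triangles for replicate 2 and bars for the mean of 2 arrays. NAP1L3, LIMCH1 and TACC1 drop in the knockdown group (shHSF1, Dox, HSP990), to 97.2, 211.5 and 146.85 on average, and NAP1L5 stays under the array medians.

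The paralogs did not share this fall. None of the 5 tested paralogs was called with the knockdown, beside 2.84% of all genes, so that count alone does not set them apart. An unadjusted p under 0.05 was found for 1 of the 5, NAP1L2, and for 1943 of the 12672 genes. The lowest end of any 95% interval of the paralogs was −0.89, for NAP1L2, whereas the estimates for NAP1L3, LIMCH1 and TACC1 were −2.14 or lower. A fall of the size described for those 3 genes was outside the interval of every tested paralog. Those 3 were chosen for falls that ranked 4th, 6th and 9th lowest of the 12672. This gap therefore does not set the paralogs apart from other genes.

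NAP1L1, the ubiquitous nucleosome assembly protein, was read by 7 probe sets. Probe set 213864_s_at gave 4226.1 and 5115.3 in the DMSO control, 4405.2 and 7682.4 in the Dox control, 4638.4 and 4796.5 in the inhibitor group, and 4360.8 and 5497.3 in the knockdown group. The groups overlapped, and the highest value came from the array with the ACTB ratio of 46.8. With the knockdown it differed by 0.05 (95% interval −0.53 to 0.63, limma adjusted p = 0.961). All 7 were bright enough to be tested, and their knockdown differences ranged from 0.01 to 0.31 on the log2 scale.

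Among those 7, 208754_s_at read 1294.3 and 1479.4 without and 1664.9 and 1779.2 with the knockdown. It gave the largest difference of the NAP1L1 probe sets, 0.31 (SE 0.17, limma adjusted p = 0.461 when all probe sets were tested singly). Probe sets with the suffix x, such as 208752_x_at of NAP1L1, hold probes that can match other sequences, so their reads of the gene are uncertain.

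NAP1L2, like NAP1L3 an X-linked gene, differed between the groups without passing the test. Its only probe set (219368_at) gave 126.7 and 123.5 in the DMSO control, 155.4 and 117.3 in the Dox control, 198.2 and 235.5 in the inhibitor group, and 149.7 and 157.2 in the knockdown group. It was highest in the inhibitor group, and the knockdown arrays lay below these and at or near the highest arrays of shNTC cells. The knockdown left 70.8% of the signal (log2 change −0.45, 95% interval −0.89 to −0.02, limma adjusted p = 0.298).

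NAP1L4, the other widely made member, differed little. Probe set 201414_s_at gave 453 and 479.3, 456.5 and 431.8, 406 and 427.3, and 464.7 and 477.4 in the 4 groups in the same order. The knockdown arrays were slightly above those of the inhibitor group (log2 change 0.17, 95% interval −0.15 to 0.49, limma adjusted p = 0.652). Its second probe set, 1560339_s_at, varied from 80.6 to 378.7 with replicates far apart, and its change of 0.68 had an SE of 0.58. The remaining 3 were at 28.8 or lower on all arrays, and NAP1L5 read 0.1 to 6.2 on both of its probe sets, so no level could be compared for it.

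TACC2 and TACC3 were measured well above the median. TACC2 (202289_s_at) gave 443.9 and 454.1 in the DMSO control, 388.7 and 421.5 in the Dox control, 577.7 and 605 in the inhibitor group, and 562.3 and 483.8 in the knockdown group. On this probe set all 4 arrays of shHSF1 cells were above all 4 of shNTC cells. With the knockdown TACC2 differed by −0.18 (95% interval −0.51 to 0.15, limma adjusted p = 0.659), and its second probe set that passed, 211382_s_at, by −0.23. On 211382_s_at the lines overlapped, with 63.7 to 83.2 in shHSF1 cells and 59.4 to 81.1 in shNTC cells.

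TACC3, the spindle TACC protein, gave 191.2 and 209.3, 148.3 and 200.5, 182.1 and 202.4, and 118.2 and 179.8 on its only probe set, 218308_at. Its second knockdown array was close to the first array of the inhibitor group, and the first was lower. The knockdown change was −0.36 (95% interval −0.86 to 0.14, limma adjusted p = 0.512). Without the first knockdown array it was −0.09 and without the second −0.63.

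**Figure D2:**
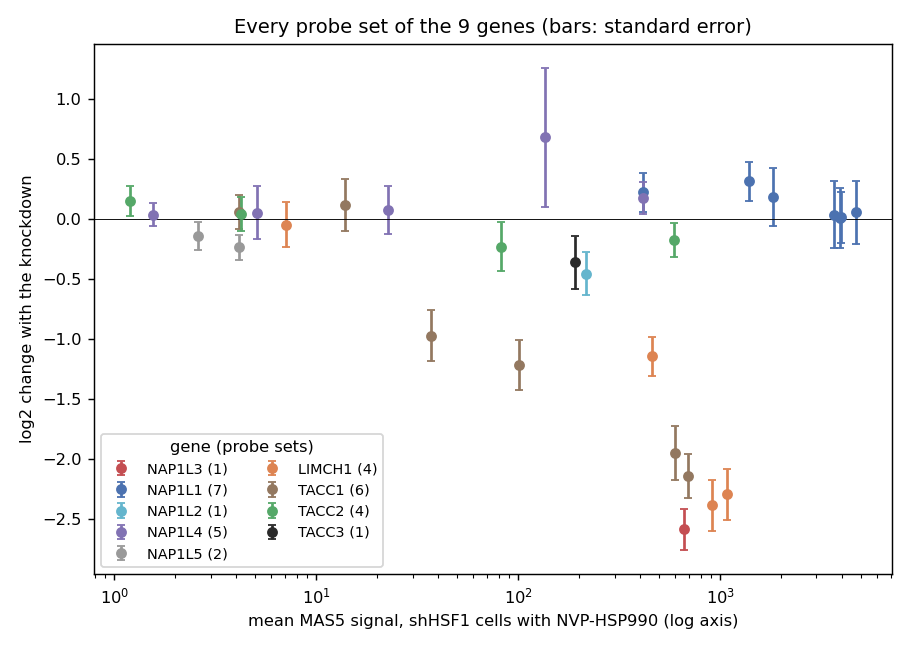
Log2 change with the knockdown (y axis, bars 1 SE) of each of the 31 probe sets against its mean signal in the inhibitor group (x axis, log scale), coloured by gene. The rightmost 2 probe sets of LIMCH1 and of TACC1 lie at −1.94 or lower with NAP1L3, those of NAP1L1 lie between 0.01 and 0.31 over their whole range of signals, and probe sets never at the array median lie near 0 in every gene.

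The inhibitor group against the DMSO control asks which genes the inhibitor moves, and it holds the difference between the hairpin lines as well. It shares the inhibitor arrays with the knockdown comparison. Of the genes tested, 0.221% were called, and none of the 5 tested paralogs was. NAP1L2 stood at 173% of the DMSO control (log2 change 0.72, 95% interval 0.28 to 1.15, limma adjusted p = 0.438). TACC2 stood at 132% of them (0.39, 95% interval 0.06 to 0.71, limma adjusted p = 0.884). Neither difference passed after adjustment, though each had an unadjusted p under 0.05, as did 628 of the 12672 genes tested. NAP1L1 differed by 0.02, NAP1L4 by −0.16 and TACC3 by −0.05, each with a limma adjusted p of 1.

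The Dox control against the DMSO control gives the effect of the antibiotic and of an induced non-targeting hairpin. This contrast was not used to choose NAP1L3, LIMCH1 and TACC1 and compares no array of the knockdown comparison, so all 8 genes were tested. It is not fully independent of the choice. Its DMSO control arrays also entered the inhibitor comparison, and the spread was estimated over all 8 arrays. No gene of the 12672 was called (0%) by limma, beside 306 with an unadjusted p under 0.05, and the methods' t-test called 588 at the same unadjusted threshold and 0 after adjustment. NAP1L3 differed by 0.22 (95% interval −0.17 to 0.61), LIMCH1 by 0.08 (−0.37 to 0.53) and TACC1 by −0.22 (−0.63 to 0.19), each with a limma adjusted p of 1. Signals of NAP1L3 and LIMCH1 overlapped between the groups, while TACC1 was slightly lower on both arrays of the Dox control (733.7 and 610.3) than on both of the DMSO control (833 and 734). The lowest end of these intervals was −0.63, whereas the changes with the knockdown were −2.58, −2.29 and −2.14.

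The 5 paralogs gave limma adjusted p-values of 1 for Doxycycline in shNTC cells as well. Their log2 changes ran from −0.20 for TACC3 to 0.32 for NAP1L1. The value of NAP1L1 rested on the array with the high ACTB ratio and was −0.08 without it. Probe sets 208752_x_at (6205.1) and 204528_s_at (5471.1) were also highest on that array, whereas 208754_s_at (987.5) and 1556121_at (317.8) were lowest on it.

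**Figure D3:**
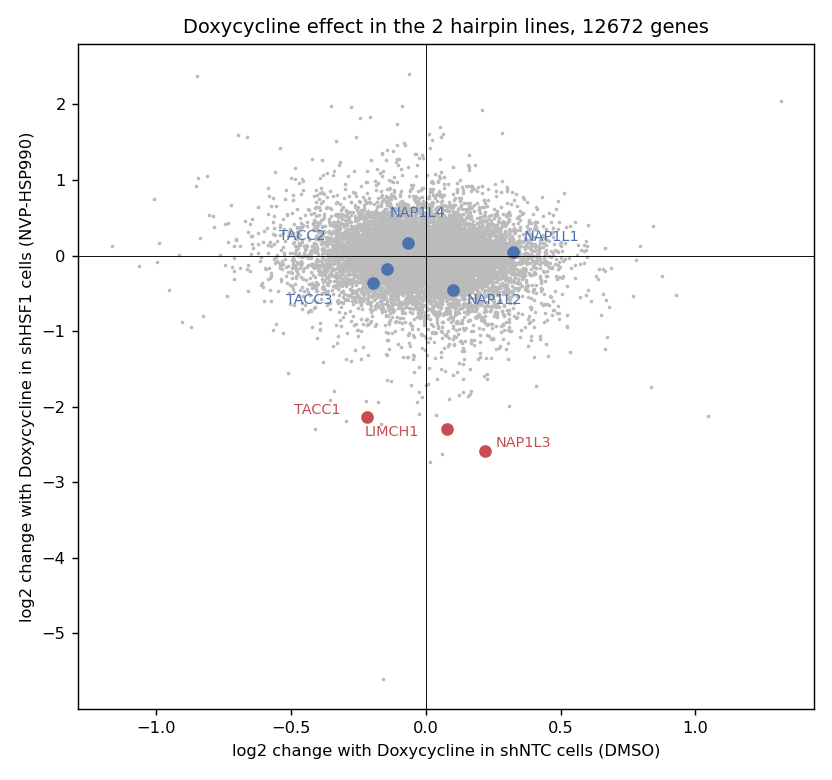
Log2 change with Doxycycline in shHSF1 cells (y axis, the knockdown, both groups with NVP-HSP990) against that in shNTC cells (x axis, both groups in DMSO) for the 12672 genes tested (grey points), which share no arrays, with NAP1L3, LIMCH1 and TACC1 in red and the 5 tested paralogs in blue. The red points lie between −2.58 and −2.14 on the y axis and between −0.22 and 0.22 on the x axis, while the blue points lie between −0.45 and 0.17 on the y axis.

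The knockdown group was also set against the Dox control, which received the antibiotic too. These groups differ in the hairpin and in NVP-HSP990 against DMSO, and the parts of these cannot be told apart. This comparison shares the knockdown arrays with the first one. NAP1L3 stood at 13.1% of the control (log2 change −2.74, SE 0.17), LIMCH1 at 17.9% (−2.43, SE 0.20) and TACC1 at 21.9% (−2.09, SE 0.18), the 2nd, 3rd and 6th lowest of all genes. These values are again a description, and without the array with the high ACTB ratio they were −2.91, −2.41 and −2.22. Here 5.83% of genes were called, 739 in all and 323 without that array, and none of the 5 paralogs was. TACC2 was at 129% of the control (0.35, 95% interval 0.02 to 0.68, limma adjusted p = 0.222). NAP1L1 differed by −0.25 (limma adjusted p = 0.661) and by 0.15 without the array with the high ACTB ratio. The NAP1L1 probe set 208754_s_at differed the other way, by 0.67 (SE 0.17, limma adjusted p = 0.0591 among probe sets tested singly), and it read lowest on the array with the high ACTB ratio.

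NAP1L2 differed by 0.16 in this comparison (limma adjusted p = 0.703), NAP1L4 by 0.08 (0.806) and TACC3 by −0.22 (0.654). Their levels in the knockdown group lay near those of the Dox control, with 95% intervals that reached no lower than −0.72 and no higher than 0.60. In the interaction, which is the knockdown change minus the change with Doxycycline in shNTC cells, 0.789% of all genes were called, 100 in all and 24 without the array with the high ACTB ratio, and none of the 5 tested paralogs was.

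**Figure D4:**
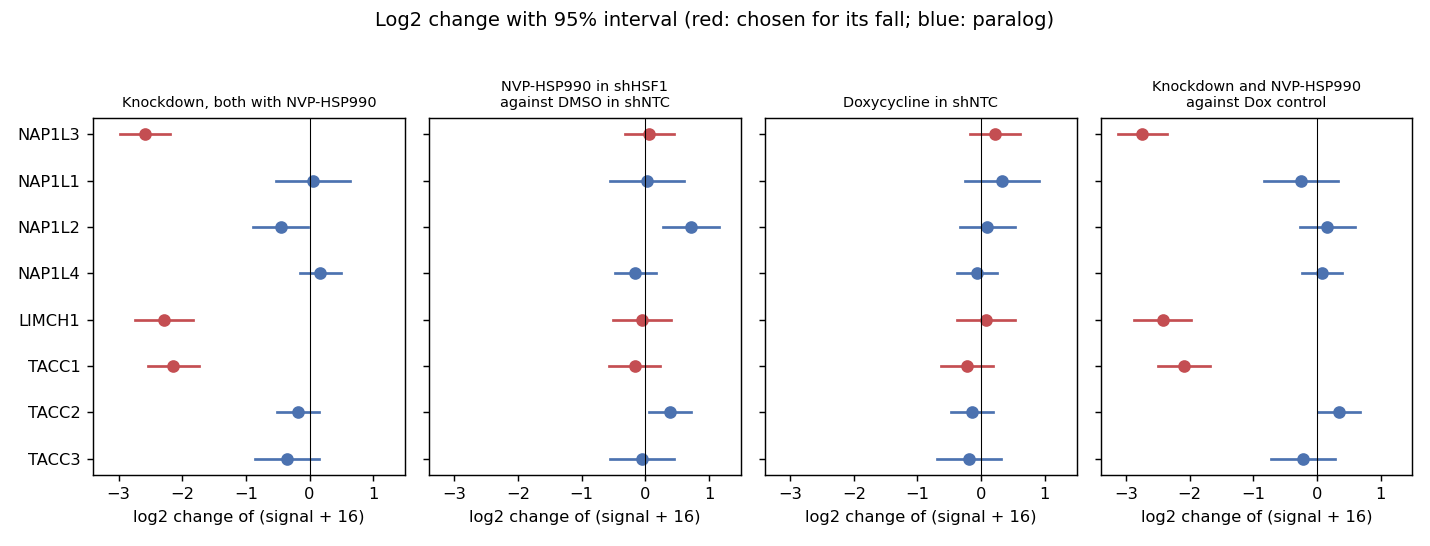
Log2 change of signal + 16 (x axis) with its 95% interval for the 8 tested genes (y axis) in 4 comparisons of 2 arrays against 2, with NAP1L3, LIMCH1 and TACC1, which were chosen for their fall, in red and the paralogs in blue. The red points lie at −2.09 or lower in the first and last panels and their intervals include 0 in the middle panels, and none of the blue ones extends below −0.89.

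The pathways around the 3 genes were described from lists. Of 35 histone chaperone genes, 34 were tested, and with the knockdown 1 was lower, none was higher and 33 were not called (2.94% called, beside 2.84% of all genes). The list's median log2 change was −0.06, beside 0.00 for all genes. The gene that fell was ASF1A, which hands histones H3 and H4 to the assembly factors CAF-1 and HIRA. It gave 880.1 and 820.1 in the DMSO control, 931.1 and 774.8 in the Dox control, 832.5 and 718.6 in the inhibitor group, and 228.4 and 222 in the knockdown group.

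ASF1A thus stood at similar levels on 6 arrays and low on the knockdown arrays, with a log2 change of −1.71 (SE 0.16, limma adjusted p = 0.000475). Its second probe set, 203427_at, read 553.8 and 511.5 without and 197.5 and 182 with the knockdown. The inhibitor group differed from the DMSO control by −0.13 and the Dox control by −0.00. Its close paralog ASF1B gave 928 and 983.1, 753.8 and 899, 948.5 and 1010.7, and 906.4 and 839.9 in the same order. The knockdown change of ASF1B was −0.16 (SE 0.15, limma adjusted p = 0.689), and its 95% interval, −0.49 to 0.17, did not reach that of ASF1A, −2.06 to −1.37. SET, a relative of the nucleosome assembly proteins, differed by 0.04 (limma adjusted p = 0.961).

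Of 33 spindle and TACC partner genes, 32 were tested, and none was called with the knockdown, beside 2.84% of all genes. An unadjusted p under 0.05 was found for 3 of the 32, and for 1943 of the 12672 genes. The median change was −0.13. CKAP5, the microtubule polymerase that binds TACC proteins, differed by −0.50 (limma adjusted p = 0.382), the mitotic kinase AURKA by −0.23 (0.722) and the clathrin heavy chain CLTC by −0.12 (0.866). The lowest was HAUS2, a subunit of the augmin complex, at −0.71 (0.0788). HAUS2, like the actomyosin genes below, was named after its value was seen.

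Of 34 actomyosin and LIM-calponin genes, 29 were tested, and none was called with the knockdown, beside 2.84% of all genes. An unadjusted p under 0.05 was found for 5 of the 29, and for 1943 of the 12672 genes. The median change of the list was 0.05. LMO7, the closest relative of LIMCH1, differed by 0.54 (limma adjusted p = 0.399). MYH10, a heavy chain of non-muscle myosin II, differed by −0.62 (0.105), the calponin CNN2 by 0.58 (0.0678) and LIMA1, an actin crosslinker, by 0.57 (0.0712). Against the Dox control, LIMA1 rose by 0.67 (limma adjusted p = 0.0255), the 1 gene of the list called (3.45%, beside 5.83% of all genes). Without the array with the high ACTB ratio its adjusted p was 0.0551, which did not pass. Whether CNN2, LIMA1, MYH10 and HAUS2 are called with the knockdown changed with the model, and for LIMA1 with the probe set. They are not counted here as genes that moved. Probe set 222457_s_at of LIMA1 differed by 0.81 (limma adjusted p = 0.0252 among probe sets tested singly), and its 222456_s_at by −0.21. For HAUS2, 228744_at differed by −0.51, 220071_x_at by −0.04 and 229208_at by −0.08.

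**Figure D5:**
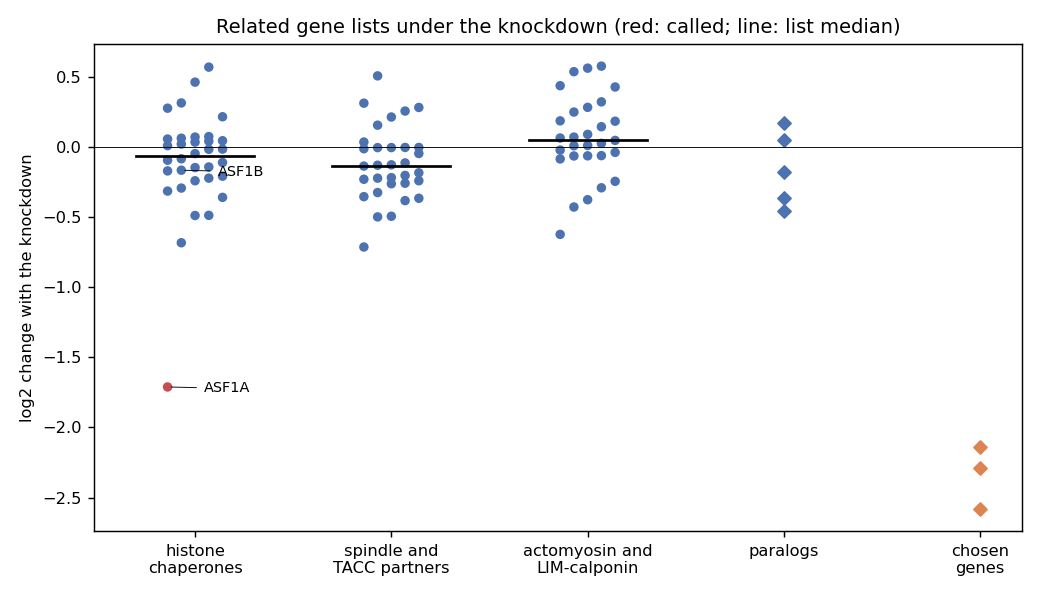
Log2 change with the knockdown (y axis) of each tested gene of 3 lists (34, 32 and 29 genes, each a point, with red for a call and a line at the list median), of the 5 paralogs and of the 3 chosen genes (diamonds). ASF1A at −1.71 stands apart in its list, ASF1B lies at −0.16, and the paralogs lie between −0.45 and 0.17.

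With NVP-HSP990, none of the genes of the 3 lists was called, beside 0.221% of all genes. In the order of the lists, 3, 2 and 1 of them had an unadjusted p under 0.05, beside 628 of the 12672 genes. With Doxycycline in shNTC cells the count of called genes was also 0 in each list, beside 0% of all genes. An unadjusted p under 0.05 was found for 1 gene in each list, and for 306 of the 12672 genes. Against the Dox control, where 5.83% of all genes were called, ASF1A was the histone chaperone gene called (−1.84, limma adjusted p = 0.000231), which is 2.94% of the list, and no spindle gene was called.

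Across the 8 arrays, NAP1L3, LIMCH1 and TACC1 followed each other with Pearson correlations of 0.986 to 0.987, as a description over arrays that share the 4 groups and the drop that chose the genes. Correlations with their own paralogs were lower. NAP1L3 correlated with NAP1L1 at 0.014, with NAP1L2 at 0.022 and with NAP1L4 at −0.522, and TACC1 with TACC2 at −0.252 and with TACC3 at 0.516. The 5 genes most like NAP1L3 were ASF1A (0.995), RWDD3 (0.994), IGSF3 (0.994), MCM9 (0.989) and CRISPLD1 (0.988). Their log2 changes with the knockdown were −1.71, −0.88, −1.63, −1.71 and −1.84, and none differed by more than 0.25 in size with NVP-HSP990 or Doxycycline.

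Most like LIMCH1 were MON2 (0.996), SLC35A5 (0.995), RBMS1 (0.993), SLC1A1 (0.991) and TBC1D24 (0.989), with changes of −1.06, −1.63, −1.36, −1.54 and −0.77 with the knockdown. For TACC1 they were SLC1A1 (0.996), OTULIN (0.995), KLHDC10 (0.992), MON2 (0.992) and SLC11A2 (0.992), with changes of −1.54, −1.22, −0.38, −1.06 and −0.58. SLC1A1, a glutamate transporter, and MON2, a factor of Golgi trafficking, were in both of these sets, while those of NAP1L3 were in neither. KLHDC10 shows that a high correlation here goes with small as well as large changes.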

How the data were processed

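RNA of A375 cells in 4 groups, defined by the sample titles, was profiled on 8 HG-U133 Plus2 arrays. Their description fields concern cells and agents of a different experiment and played no part. RNA was isolated with an RNeasy kit, amplified, labelled and hybridized. The authors deposited signal intensities from MAS5 (version not given in the sources used here), on a linear scale with a trimmed mean of 150 per array after 2% of probe sets were left out at each end. They were used without further normalization. The small number of arrays limits the precision.

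Of 54675 probe sets, 41091 had 1 gene symbol in the platform annotation, 1801 several, 11721 none, and 62 were controls. The files name no genome build. Each gene was read from its brightest probe set (mean of log2 values over the 8 arrays). A gene was tested when its signal reached its array's median on at least 2 of 8 arrays, which kept 12672 of 19775. Log2(signal + 16) was fitted with limma 3.58.1 in R 4.3.3 as a means model of the 4 groups with intensity-trended empirical Bayes variances (4 residual and 6.36 prior degrees of freedom). Two-sided p-values were adjusted over the genes that entered the fit, with a threshold of 0.05. The fit was also run on simulated data in which arrays varied independently, so that run did not test deviations shared by arrays of the same number.

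All 9 members with their probe sets, HSF1, each list gene called with the knockdown (up to 6), and the 5 genes most correlated with NAP1L3, LIMCH1 and TACC1 were named by rule. Others are named for their function or as the list genes nearest the threshold. Members and lists were chosen with earlier results of these data known. The alternatives were 1 or 64 added before the log, no or a stricter filter, quantile normalization, centring on the median, averaged probe sets, probe sets tested singly, no variance trend, only the arrays of the comparison, the replicate number as a block, the ACTB ratio as a covariate, the methods' t-test, and each array left out. TSPYL5 and CNN1 did not pass the filter, and some other list genes were not analysed here.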

Additional observations from a re-analysis of the deposited data

Results flagged for a closer look

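The effects of Doxycycline in the hairpin lines are set against each other here for NAP1L3, LIMCH1 and TACC1. Doxycycline in shHSF1 cells with NVP-HSP990, minus Doxycycline in shNTC cells with DMSO, gave −2.80 for NAP1L3 (SE 0.25), −2.37 for LIMCH1 (SE 0.29) and −1.92 for TACC1 (SE 0.26) on the log2 scale. These genes were chosen for the first of those effects, so the differences are a description and their p-values are left out. Of all genes, 0.789% were called in the interaction, and HSF1 itself gave −1.86 (SE 0.41, limma adjusted p = 0.0768). None of the 5 paralogs was called, with interactions from −0.55 for NAP1L2 (limma adjusted p = 0.537) to 0.24 for NAP1L4 (0.779). The lines also differed in NVP-HSP990, whose part in the difference was not tested. For TACC1 the interaction was −0.83 when all probe sets of the gene were averaged, including the dim ones.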

How the results depend on the processing

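NAP1L3, LIMCH1 and TACC1 kept the direction of their knockdown change under all 21 alternatives. It ran from −2.76 to −2.17 for NAP1L3, from −2.59 to −1.47 for LIMCH1 and from −2.34 to −1.02 for TACC1. The smallest value of LIMCH1 and of TACC1 came from averaging all probe sets, which takes in the dim ones. No paralog was called in any comparison under any alternative, and no member with Doxycycline in shNTC cells.

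Small changes of paralogs turned sign. NAP1L1 with NVP-HSP990 (0.02) was −0.0232 under median centring, −0.0498 with the ACTB ratio as a covariate and −0.12 to 0.16 with arrays left out. Against the Dox control it was 0.00986 under quantile normalization, 0.0371 as the mean of all probe sets and −0.65 to 0.15 with arrays left out. With arrays left out its knockdown change ran from −0.11 to 0.22, its Doxycycline change from −0.0776 to 0.72 and its interaction from −0.67 to 0.13. Likewise NAP1L2 ran from −0.0819 to 0.28 with Doxycycline and from −0.0169 to 0.35 against the Dox control. The interaction of TACC2 was 0.0172 with the ACTB covariate and −0.14 to 0.0737 with arrays left out. TACC3 ran from −0.13 to 0.0155 with NVP-HSP990, from −0.40 to 0.00293 with Doxycycline, from −0.49 to 0.054 against the Dox control and from −0.44 to 0.11 in the interaction. The cause was not tested.

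Histone chaperones called with the knockdown numbered 0 by the methods' t-test. The replicate block called 1 spindle gene, HAUS2, and 3 actomyosin genes, CNN2, LIMA1 and MYH10. Quantile normalization and the ACTB covariate each called 2 actomyosin genes, and leaving out arrays gave 0 to 3.

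Counts over all genes moved more. The 360 genes called with the knockdown became 221 without the filter, 95 with the comparison's own arrays, 752 with the replicate block and 112 to 382 with arrays left out (112 without the second knockdown array, and 153 to 217 without any other array of the knockdown group, inhibitor group or DMSO control). For NVP-HSP990 the 28 became 16, 44 with the block and 5 to 30 with arrays left out (5 without the second array of the DMSO control). Against the Dox control the 739 became 450, 1237 with the block and 246 to 803 with arrays left out (246 without the second knockdown array), and the 100 of the interaction became 59, 279 with the block, 33 with the ACTB covariate and 7 to 75 with arrays left out (7 without the first array of the DMSO control). The methods' t-test, at an unadjusted p under 0.05, called 1413 genes with the knockdown, 699 with NVP-HSP990 and 1335 against the Dox control. For the interaction, which needs all 4 groups, a t contrast with their pooled variance called 1293, a count not directly comparable. After adjustment the count was 0 in each. Deviations of arrays of the same number correlated between groups at 0.016 to 0.685, the highest being between the inhibitor and knockdown groups. The main model does not use this pairing. The labels give no more than the shared number, so the replicate block is an alternative here. It changed no other call of a member or list. Where an array was left out, the remaining one of its group was assumed to vary like the other groups. With 2 arrays per group and signals near background for NAP1L5, small differences were not detectable.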
